A study of Mus musculus with 12 samples.

Results

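The glycolytic enzyme isoforms described here are 10 genes in 5 pairs, *Hk1* and *Hk2*, *Pfkp* and *Pfkm*, *Pgam1* and *Pgam2*, *Eno1* and *Eno3*, and *Ldha* and *Ldhb*. They were listed by name among the 18996 genes of a deposited count table, with no cut-off on a measured value but with earlier results of these data known, and all 10 passed the filter on low counts. The table covers 12 BALB/c mice of 5 to 7 weeks at purchase in 3 groups of 4, named No operation, SHAM and Laminectomy. Paraspinal soft tissue was taken from mice without an operation, and in the surgical groups the labels add scar to it. In SHAM mice paraspinal soft tissue was removed and no lamina was excised, according to the study. In Laminectomy mice the laminae of the spine were excised, which exposes the dura mater. Tissue was taken on day 7 after surgery. The study used male and female mice, the sex of each mouse is not given, and no transgene or drug is named for these groups.

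Glycolysis splits glucose into pyruvate in the cytoplasm, and lactate dehydrogenase then converts pyruvate and lactate into each other. Several of its steps are run by isoenzymes from separate genes, and skeletal muscle is the classic tissue with its own set. *Hk2* encodes the hexokinase of insulin-responsive tissues, *Pfkm* the muscle subunit of phosphofructokinase, *Pgam2* the muscle phosphoglycerate mutase and *Eno3* the beta enolase of muscle. *Hk1*, *Pfkp*, *Pgam1* and *Eno1* encode the forms for the same reactions in most other cells, including connective tissue cells and leukocytes. For lactate dehydrogenase the split is a different one, with the M subunit of *Ldha* plentiful in fast muscle fibres and many proliferating cells and the H subunit of *Ldhb* plentiful in heart and oxidative fibres.

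Total counts lay between 16802988 and 18077863 per mouse. The tissue labels were held against marker lists. The 14 muscle fibre genes (*Acta1*, *Ckm*, *Myh4* and others) summed to between 111583 and 158571 CPM (counts scaled to a common library size after TMM adjustment) in No operation mice, 2690 to 11202 in SHAM mice and 3846 to 15993 in Laminectomy mice. The lowest surgical values were those of SHAM mouse 1 and Laminectomy mouse 1. SHAM mouse 1 stood apart in another list as well: the 8 genes of regenerating muscle (*Myh3*, *Myog*, *Mymk* and others) summed to 6.35 CPM in it and to between 1326 and 2258 CPM in the other SHAM mice. The 8 macrophage markers summed to 8524 CPM in SHAM mouse 1 and to between 4543 and 5481 CPM in the other SHAM mice. Folds that moved by more than 1.5 times without one of these mice are given with and without it.

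After surgery, the muscle isoforms were lower and their counterparts higher. All 10 genes differed between SHAM and No operation mice by edgeR's quasi-likelihood test, 6 lower (*Hk2*, *Pfkm*, *Pgam2*, *Eno3*, *Ldha* and *Ldhb*) and 4 higher (*Hk1*, *Pfkp*, *Pgam1* and *Eno1*), with adjusted p between 5.03e-06 and 0.00512. The same 6 were lower and the same 4 higher in Laminectomy mice, with adjusted p between 6.81e-06 and 0.0243. A gene was called at a Benjamini-Hochberg adjusted p below 0.05 over all 14765 genes tested and an absolute log2 fold change above 0.5. By this rule 50.8% of all genes tested were called in SHAM mice (25.7% higher and 25.1% lower) and 48.6% in Laminectomy mice (24.2% higher and 24.4% lower), so a call by itself sets no gene apart in these data. The mice of the groups did not overlap for any of the 10 genes in either comparison, which also held for 54.5% of all genes in SHAM mice and 56.0% in Laminectomy mice. Both comparisons share the No operation mice and are not independent of each other.

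In tissue pieces, fewer cells of a type and less RNA per cell cannot be told apart. The muscle fibre genes fell together with the muscle isoforms, 14 of 14 called lower in both surgical groups, at a median of -4.09 in SHAM and -3.32 in Laminectomy mice on the log2 fold change scale. All 14 were detected in every group, and most of them mark fast fibres or all fibres. Of 7 slow fibre genes (*Myh7*, *Tnnt1* and others), 4 were called lower in each surgical group, at medians of -1.31 and -0.62, and *Tnnt1*, *Tnni1* and *Tnnc1* were not called. Without SHAM mouse 1 or SHAM mouse 4, 6 of the 7 were called lower in SHAM mice. In Laminectomy mice the call of *Atp2a2* (adjusted p = 0.0452 by edgeR) was lost, leaving 3, when any one of No operation mice 1 to 3, SHAM mice 1 and 3 and Laminectomy mice 1 to 4 was left out. The macrophage list moved with the 4 isoforms that rose, with 8 of 8 markers called higher in SHAM mice and 7 of 8 in Laminectomy mice, and summed to 613 to 1796 CPM in No operation, 4543 to 8524 in SHAM and 3286 to 5722 in Laminectomy mice. Of the 9 fibroblast genes (collagen genes, *Postn* and others), 7 were called higher and 1, *Dcn*, lower in each surgical group. The list summed to 8574 to 27866 CPM in No operation, 58660 to 79201 in SHAM and 54743 to 67977 in Laminectomy mice. The *Dcn* call in SHAM mice (adjusted p = 0.0359 by edgeR) was lost without any one of No operation mouse 3 and SHAM mice 2 to 4. Of the 8 genes of regenerating muscle, 6 were called higher in SHAM and 7 in Laminectomy mice, *Myod1* being called in neither, at medians over the list of 5.36 and 5.93 on the log2 fold change scale, and with sums of 76.5 to 123 CPM in No operation and 1446 to 2277 CPM in Laminectomy mice. In SHAM mouse 1, which nearly lacked this list, *Pgam1*, *Eno1*, *Pfkp* and *Hk1* were the highest of the group. Of 6 cell cycle genes, 4 were called higher in SHAM and 5 in Laminectomy mice, but their sums spread from 9.25 to 349 CPM within the No operation group. A single one was called higher in SHAM mice when any one of No operation mice 1 and 3 and SHAM mice 3 and 4 was left out, all 6 were without No operation mouse 2, which had the sum of 349 CPM, and 2 were in Laminectomy mice with the mouse numbered 1 left out of every group. The part of these cells in the results was not tested.

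**Figure D1:**
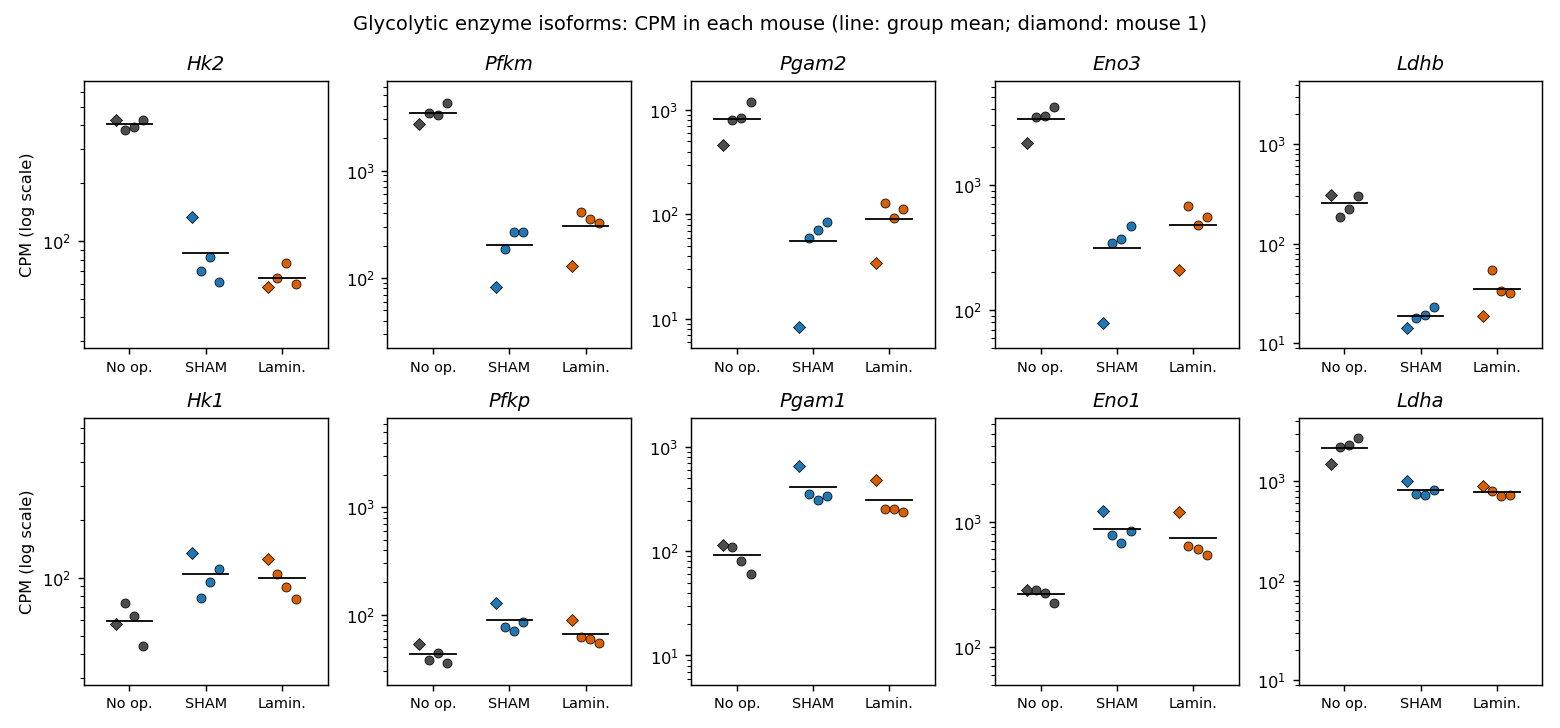
CPM of each isoform in every mouse on a log axis, with the muscle isoforms and *Ldhb* in the upper row and their partners in the lower row, a line at the group mean and a diamond for the mouse numbered 1. In the upper row and for *Ldha* every mouse after surgery lies below every No operation mouse, and in the lower row *Hk1*, *Pfkp*, *Pgam1* and *Eno1* lie above.

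Hexokinase traps glucose in the cell as glucose 6-phosphate. *Hk2* (gene 15277 of the table, located on chromosome 6 of GRCm38 from 82725025 to 82774454) measured 425, 378, 394 and 425 CPM in the No operation group 1 to 4. In SHAM mice 1 to 4 it was at 133, 69.97, 82.4 and 61.0 CPM, and in Laminectomy mice at 57.7, 64.0, 76.5 and 59.8 CPM. SHAM mouse 1, the mouse with the least fibre RNA, had the highest *Hk2* of the 8 operated mice. *Hk2* was 4.69-fold lower in SHAM mice (log2 fold change -2.23, standard error 0.216) and 6.29-fold lower in Laminectomy mice (log2 fold change -2.65, standard error 0.220). *Hk1* (gene 15275, chromosome 10 from 62268855 to 62379908) was at 57.3, 74.2, 63.3 and 44.3 CPM in the No operation group. It was at 135, 78.7, 94.5 and 110.3 CPM in the SHAM group and at 126, 104, 89.9 and 77.5 CPM in the Laminectomy group. The lowest operated mouse was only slightly above the highest No operation mouse, and the rise was a log2 fold change of 0.81 in SHAM mice (adjusted p = 0.00512 by edgeR, standard error 0.205) and 0.73 in Laminectomy mice (adjusted p = 0.00921 by edgeR, standard error 0.205). Exons of *Hk1* overlap those of the antisense gene *Hk1os*, which the table does not list.

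The ratio of *Hk1* to *Hk2* CPM within a mouse does not depend on how libraries are scaled. It was 0.135, 0.196, 0.161 and 0.104 in No operation mice, 1.01, 1.12, 1.15 and 1.81 in SHAM mice and 2.18, 1.63, 1.18 and 1.296 in Laminectomy mice. *Hk2* thus had more counts in every No operation mouse and *Hk1* in every operated mouse, which also held per kb of transcript. The log2 ratio was higher by 3.09 in SHAM mice (standard error 0.268, 8.53-fold) and by 3.39 in Laminectomy mice (standard error 0.277, 10.5-fold), each with p = 0.0286 in a two-sided exact permutation test, the smallest that 4 mice against 4 allow. 

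Phosphofructokinase commits sugar phosphate to glycolysis. *Pfkm* (gene 18642, chromosome 15 from 98092589 to 98132451) had 2705, 3414, 3253 and 4253 CPM in the No operation group. It had 82.0, 186, 268 and 269.5 CPM in the SHAM group and 129, 408, 352 and 325 CPM in the Laminectomy group. In each surgical group the mouse numbered 1 was the lowest. The log2 fold changes of -4.08 in SHAM mice (standard error 0.444) and -3.49 in Laminectomy mice (standard error 0.432), or 16.9-fold and 11.2-fold, were the largest declines among the 10 genes in each comparison. Exons of *Pfkm* overlap the opposite-strand gene *Senp1* by 18 bases and the same-strand gene *Gm26513* by 341 bases. *Senp1* was at 24.7 to 39.5 CPM over all mice, under the lowest *Pfkm* value of 82.0 CPM in SHAM mouse 1, and *Gm26513* has no row in the table.

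*Pfkp* (gene 56421, chromosome 13 from 6579768 to 6648777) encodes the platelet-type subunit. It was at 53.6, 37.8, 44.2 and 35.6 CPM in the No operation group, 127, 77.0, 70.9 and 84.7 CPM in the SHAM group and 88.5, 62.2, 59.4 and 54.2 CPM in the Laminectomy group. Laminectomy mouse 4 lay just above No operation mouse 1, and of the 10 genes *Pfkp* had the smallest change in Laminectomy mice, with a log2 fold change of 0.63 (adjusted p = 0.0243 by edgeR, standard error 0.213) against 1.07 in SHAM mice (adjusted p = 0.00115 by edgeR, standard error 0.214). The call in Laminectomy mice was lost when certain mice were left out, with a log2 fold change of 0.45 (adjusted p = 0.0796, edgeR) without Laminectomy mouse 1, 0.57 (adjusted p = 0.0595, edgeR) without No operation mouse 2 and 0.55 (adjusted p = 0.0621, edgeR) without No operation mouse 4. Exons of *Pfkp* overlap 748 bases of *Pitrm1* on the opposite strand, which itself was at 57.3 to 82.5 CPM over all mice with log2 fold changes of -0.07 in SHAM and -0.04 in Laminectomy mice. The study's methods name the default settings of the counting tool, which ignore strand and count a read that overlaps both genes for neither. These defaults give whole counts, whereas the table also holds values that are not whole, so how reads from the shared bases were treated is not settled.

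*Pfkp* had few counts beside *Pfkm* in No operation mice, with ratios of 0.0198, 0.0111, 0.0136 and 0.00837. The ratios were 1.55, 0.413, 0.264 and 0.314 in SHAM mice and 0.687, 0.152, 0.168 and 0.167 in Laminectomy mice. *Pfkm* still had more counts than *Pfkp*, also per kb, in 7 of the 8 operated mice, SHAM mouse 1 being the exception. On the log2 scale the ratio was higher by 5.25 in SHAM mice (standard error 0.635, 38.1-fold) and by 4.21 in Laminectomy mice (standard error 0.583, 18.5-fold), with p = 0.0286 in each exact permutation test.

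Phosphoglycerate mutase moves the phosphate of 3-phosphoglycerate, and its pair showed the widest shift in ratio. *Pgam2* (gene 56012, chromosome 11 from 5801640 to 5803733) was at 466, 801, 838 and 1186 CPM in the No operation group. It was at 8.37, 59.5, 70.7 and 83.7 CPM in the SHAM group and 34.3, 127, 91.9 and 112 CPM in the Laminectomy group. SHAM mouse 1 was far below the other SHAM mice. The log2 fold change of *Pgam2* was -3.89 for SHAM mice (adjusted p = 0.000329 by edgeR, standard error 0.644) and -3.17 in Laminectomy mice (adjusted p = 0.00114 by edgeR, standard error 0.623). *Pgam1* (gene 18648, chromosome 19 from 41911923 to 41918660) went the other way, from 114, 109, 81.3 and 60.4 CPM in the No operation group to 657, 355, 307 and 337 CPM in the SHAM group and 478, 252, 256 and 237 CPM in the Laminectomy group. Its log2 fold changes of 2.18 in SHAM mice (standard error 0.323, 4.54-fold) and 1.74 in Laminectomy mice (standard error 0.318, 3.35-fold) were the largest rises of the 10 genes in each comparison. In both surgical groups the mouse numbered 1 was the highest. Processed copies of *Pgam1* are annotated in the mouse genome, and how reads shared with them were counted is likewise not settled.

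The promoters of this pair are shown because these genes had the widest opposite change. Each is the 250 bases before the RefSeq start site on GRCm38.p6, read in the direction of transcription (chr11:5803797-5804046 on the minus strand for *Pgam2*, chr19:41911621-41911870 on the plus strand for *Pgam1*). Capitals mark matches, on either strand, to the E-box CANNTG, the core bound by myogenic factors such as MyoD, and to the consensus of MEF2, a factor of muscle genes.
Pgam2: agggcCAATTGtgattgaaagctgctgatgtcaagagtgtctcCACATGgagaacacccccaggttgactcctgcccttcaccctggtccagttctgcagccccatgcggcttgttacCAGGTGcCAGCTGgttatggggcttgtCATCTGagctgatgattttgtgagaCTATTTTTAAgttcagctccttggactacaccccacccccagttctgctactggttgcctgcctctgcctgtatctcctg
Pgam1: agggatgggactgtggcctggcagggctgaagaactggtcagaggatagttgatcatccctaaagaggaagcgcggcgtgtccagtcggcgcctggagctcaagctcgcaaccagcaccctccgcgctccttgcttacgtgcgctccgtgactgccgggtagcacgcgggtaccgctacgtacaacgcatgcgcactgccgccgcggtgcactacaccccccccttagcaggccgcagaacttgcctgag
The *Pgam2* window held 5 E-boxes, the nearest to the start at -105, and 1 MEF2 match at -80, while the *Pgam1* window held neither. Over the 32851 promoter windows of the same length, 66.2% held an E-box and 2.92% a MEF2 match. No promoter window of the other 8 genes held a MEF2 match. E-boxes lay in windows of *Pfkm*, *Eno3*, *Ldha*, *Hk1* and *Eno1* and in none of *Hk2*, *Pfkp* and *Ldhb*. Over all 10 genes they did not follow the split between muscle isoforms and counterparts. A match is a description of these letters and no evidence of binding.

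The ratio of *Pgam1* to *Pgam2* was 0.245, 0.136, 0.0970 and 0.0510 in No operation mice, 78.4, 5.97, 4.34 and 4.02 in SHAM mice and 13.9, 1.98, 2.78 and 2.12 in Laminectomy mice. *Pgam1* made up 11.3% ± 6.29 (SD, n = 4) of the counts of the pair in No operation mice, 86.4% ± 8.55 in SHAM mice and 75.3% ± 12.4 in Laminectomy mice. The log2 ratio was higher by 6.38 in SHAM mice (standard error 1.12, 83.4-fold) and by 4.97 in Laminectomy mice (standard error 0.814, 31.4-fold), with p = 0.0286 in each exact permutation test. Without SHAM mouse 1 the former was 41.4-fold, and without Laminectomy mouse 1 the latter was 20.0-fold, a design of 3 mice against 4 in which no p below 0.0571 is possible.

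Enolase makes phosphoenolpyruvate. *Eno3* (gene 13808, chromosome 11 from 70657202 to 70662513) was at 2144, 3485, 3527 and 4215 CPM in the No operation group. It was at 79.6, 341, 369 and 473 CPM in the SHAM group and 210.1, 677, 478 and 559 CPM in the Laminectomy group. The mouse numbered 1 was the lowest of each of the 3 groups, also without an operation. The log2 fold change against No operation was -3.40 for SHAM mice (adjusted p = 0.000192 by edgeR, standard error 0.522) and -2.80 in Laminectomy mice (adjusted p = 0.000691 by edgeR, standard error 0.508). *Eno1* (gene 13806, chromosome 4 from 150236721 to 150248879), the alpha enolase of most cells, was at 283, 284, 269 and 225 CPM in the No operation group. It was at 1219.7, 781, 675 and 838 CPM in the SHAM group and 1189, 637, 606 and 540.4 CPM in the Laminectomy group. These are log2 fold changes of 1.73 (standard error 0.264, 3.31-fold) and 1.49 (standard error 0.262, 2.80-fold). The deposited *Eno1* values were not whole in 7 mice, but in 12 of 12 mice they added up to a whole number with those of its near-identical copy *Eno1b* (within 0.001), which itself had between 0 and 4.12 counts. Values of *Eno3* were not whole either, by at most 0.0120% of the count, and those of *Pfkp* by at most 0.148%.

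The ratio of *Eno1* to *Eno3* was 0.132, 0.0816, 0.0763 and 0.0534 in No operation mice, 15.3, 2.29, 1.83 and 1.77 in SHAM mice and 5.66, 0.941, 1.27 and 0.967 in Laminectomy mice. *Eno1* had more counts than *Eno3* in 4 of 4 SHAM mice, while in Laminectomy mice 2 to 4 the ratio of counts lay near 1. Per kb of transcript, the ratio was 0.726, 0.977 and 0.746 in these 3 mice and above 1 in the 5 other operated mice. The log2 ratio was higher by 5.33 in SHAM mice (standard error 0.794, 40.1-fold) and by 4.30 in Laminectomy mice (standard error 0.672, 19.6-fold), with p = 0.0286 in each exact permutation test. These values were 24.0-fold without SHAM mouse 1 and 12.9-fold without Laminectomy mouse 1.

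**Figure D2:**
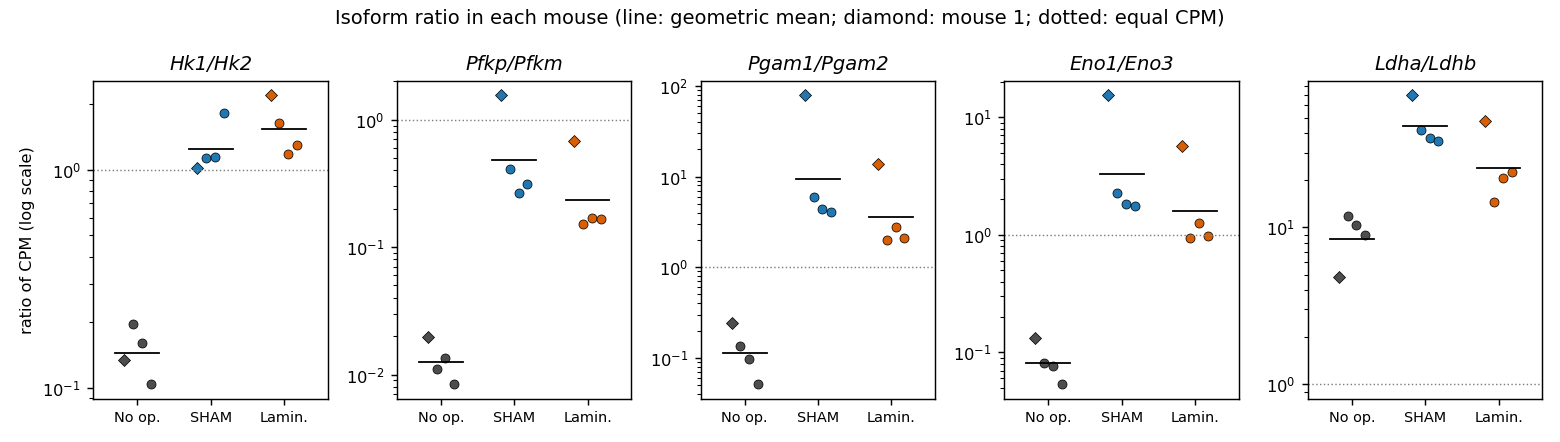
Ratio of CPM within each isoform pair in every mouse on a log axis, with a line at the geometric mean of a group, a diamond for the mouse numbered 1 and a dotted line where both isoforms have equal CPM. In all 5 pairs the operated mice lie above the No operation mice without overlap, and the mouse numbered 1 is the highest of both surgical groups except for *Hk1*/*Hk2* in SHAM mice.

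Both lactate dehydrogenase genes fell. *Ldha* (gene 16828, chromosome 7 from 46841475 to 46855627) was at 1484, 2185, 2287 and 2710.3 CPM in the No operation group. It was at 993, 749, 727 and 823 CPM in the SHAM group and 887, 798, 704 and 730.3 CPM in the Laminectomy group. The spread among operated mice was narrow, and the mouse numbered 1 was the highest of each surgical group although it was the lowest of the No operation group. The log2 fold changes of -1.40 in SHAM mice (standard error 0.190) and -1.47 in Laminectomy mice (standard error 0.190), or 2.63-fold and 2.78-fold, were the smallest declines of the 6 genes that fell. Processed copies of *Ldha* are annotated too, with the same doubt about shared reads.

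*Ldhb* (gene 16832, chromosome 6 from 142490249 to 142507957) was at 308, 185, 222 and 304 CPM in the No operation group, 14.3, 17.9, 19.5 and 23.2 CPM in the SHAM group and 18.6, 54.7, 33.8 and 32.2 CPM in the Laminectomy group. Against No operation the log2 fold change was -3.77 for SHAM mice (13.6-fold lower, adjusted p = 5.03e-06 by edgeR, standard error 0.317) and -2.87 in Laminectomy mice (7.31-fold lower, adjusted p = 2.37e-05 by edgeR, standard error 0.304). *Ldha* exceeded *Ldhb* in all 12 mice, in counts and per kb, with ratios of counts of 4.81, 11.8, 10.3 and 8.91 in No operation mice, 69.3, 41.8, 37.3 and 35.5 in SHAM mice and 47.6, 14.6, 20.8 and 22.7 in Laminectomy mice. The log2 ratio was higher by 2.37 in SHAM mice (standard error 0.361, 5.18-fold) and by 1.49 in Laminectomy mice (standard error 0.457, 2.81-fold), each with p = 0.0286 in an exact permutation test. With the mouse numbered 1 left out of every group, the latter was 1.85-fold.

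**Figure D3:**
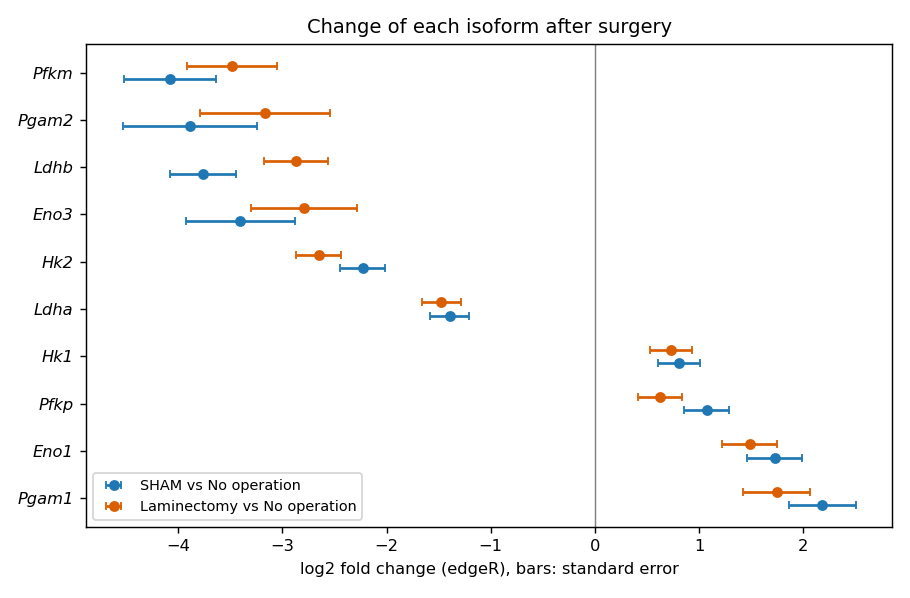
Log2 fold change of each isoform against No operation mice in the edgeR fit, with bars of 1 standard error, in order of the change in SHAM mice. Of the 10 genes, 6 lie below 0 and 4 above 0 in both surgical groups, from -4.08 for *Pfkm* to 2.18 for *Pgam1* in SHAM mice.

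The rises did not make up for the declines. Summed over each pair in CPM per kb of transcript, which was computed after the single genes had been seen, all 5 totals were lower after surgery and no operated mouse overlapped the No operation mice (p = 0.0286 in each exact permutation test). The phosphofructokinase total was 13.3-fold lower in SHAM and 10.2-fold lower in Laminectomy mice. It covers *Pfkm* and *Pfkp* and leaves out *Pfkl*, the liver-type subunit, which was called higher, with means of 38.4 CPM in No operation, 123 in SHAM and 77.7 in Laminectomy mice (log2 fold changes 1.68 and 1.02, standard errors 0.297 and 0.293). The hexokinase total likewise leaves out *Hk3*, at means of 22.5, 70.3 and 57.6 CPM, which was called higher in SHAM mice (log2 fold change 1.64, adjusted p = 0.0283 by edgeR) and not in Laminectomy mice (1.35, adjusted p = 0.0616 by edgeR). No operation mouse 2 was at 52.4 CPM of *Hk3* and the rest of its group at 3.65 to 19.8 CPM, and without it the log2 fold changes were 2.48 and 2.19, both called. Neutrophil markers (*S100a8* and others) summed to 1693 CPM in this mouse and to 13.7 to 676 CPM in the rest of its group. Their part in the *Hk3* values was not tested. The SHAM call was lost without any one of No operation mice 1 and 3 and SHAM mice 1 and 4, and *Hk3* was called in Laminectomy mice without Laminectomy mouse 4. *Pfkl* and *Hk3* were added with their values known. The other totals lay closer to each other, 2.13-fold and 2.39-fold lower for hexokinase, 3.34-fold and 3.52-fold for phosphoglycerate mutase, 3.50-fold and 3.30-fold for enolase and 2.93-fold and 3.00-fold for lactate dehydrogenase.

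The ratios within pairs above are of CPM and carry the lengths of both transcripts, whereas levels over all 10 genes were ordered per kb of the principal transcript. In No operation mice the order of mean CPM per kb was *Eno3* (2137), *Ldha* (1227), *Pfkm* (1183) and *Pgam2* (979), whose neighbours overlapped in range, then *Ldhb* (195), *Eno1* (131), *Hk2* (73.6), *Pgam1* (51.4), *Hk1* (15.5) and *Pfkp* (10.3), of which only the ranges of *Hk1* and *Pfkp* overlapped. In SHAM mice *Ldha* (466) and *Eno1* (433) led, followed by *Pgam1* (233), *Eno3* (202), *Pfkm* (70), *Pgam2* (66.1), *Hk1* (27.2), *Pfkp* (21.7), *Hk2* (15.7) and *Ldhb* (14.4), and each gene overlapped the next in range. Laminectomy mice had *Ldha* (442), *Eno1* (367), *Eno3* (308), *Pgam1* (172), *Pgam2* (109) and *Pfkm* (105), with overlap between neighbours, then a gap to *Ldhb* (26.7), *Hk1* (25.8), *Pfkp* (15.9) and *Hk2* (11.7). By this length *Eno1* stood next to *Ldha* after surgery. The lengths matter for this order, since over all annotated exons the mean CPM per kb in SHAM mice would be 249 for *Ldha*, 209 for *Pgam1*, 181 for *Eno3* and 163 for *Eno1*, and in Laminectomy mice 277 for *Eno3*, 236 for *Ldha*, 154 for *Pgam1* and 138 for *Eno1*.

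The members were also set against the 14 muscle fibre genes of the same mouse, as log2 CPM minus the mean log2 CPM of those genes. *Pfkm* kept pace with the fibre genes: its value was -1.13, -0.58, -0.98 and -0.85 in No operation mice, -0.63, -1.12, -0.81 and -1.12 in SHAM mice and -0.58, -1.03, -0.97 and -1.07 in Laminectomy mice. The difference from No operation mice was -0.03 in both surgical groups (standard errors 0.166 and 0.160, p = 0.886 in each exact permutation test), and the groups overlapped. *Pgam2* differed by -0.06 (standard error 0.367, p = 0.743) and 0.31 (standard error 0.247, p = 0.257) and *Ldhb* by 0.42 (standard error 0.385, p = 0.371) and 0.63 (standard error 0.274, p = 0.0857) in SHAM and Laminectomy mice, again with overlap and by exact permutation tests. Set against the 7 slow fibre genes in place of the 14, *Ldhb* differed by -0.95 (standard error 0.568, p = 0.171) and -0.92 (standard error 0.466, p = 0.114, exact permutation tests, with overlap), so the sign of its difference depended on the list. *Eno3* was higher by 0.54 in SHAM mice (standard error 0.212, p = 0.0571, exact permutation test, with overlap) and by 0.69 in Laminectomy mice (standard error 0.233, p = 0.0286, exact permutation test, no overlap). 

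*Hk2* and *Ldha*, which fell in CPM, were higher than in No operation mice when set against the fibre genes. *Hk2* went from -3.79, -3.76, -4.02 and -4.18 in No operation mice to 0.06, -2.53, -2.51 and -3.26 in SHAM mice and -1.74, -3.71, -3.17 and -3.51 in Laminectomy mice. The difference was 1.88 in SHAM mice (standard error 0.735, 3.68-fold) and 0.91 in Laminectomy mice (standard error 0.455, 1.87-fold), with p = 0.0286 in each exact permutation test. It was 2.25-fold in SHAM mice without SHAM mouse 1 and 1.39-fold in Laminectomy mice without Laminectomy mouse 1 (a log2 difference of 0.48). *Ldha* was higher by 2.80 in SHAM mice (standard error 0.601, 6.95-fold) and by 2.12 in Laminectomy mice (standard error 0.568, 4.34-fold), with p = 0.0286 in each exact permutation test.

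For the 4 genes that also rose in CPM, the differences relative to fibre genes ran from 4.97 for *Hk1* to 6.32 for *Pgam1* in SHAM mice. In Laminectomy mice they ran from 4.18 for *Pfkp* to 5.29 for *Pgam1*. All had p = 0.0286 in exact permutation tests, which could give no other value here. The genes had risen and the fibre genes had fallen without overlap, and the differences hold the fall of the fibre genes as well. In folds, *Pgam1* went from 80.1 to 48.5 without SHAM mouse 1 and from 39.1 to 23.8 without Laminectomy mouse 1, *Eno1* from 58.4 to 37.2 and from 31.6 to 19.0, *Pfkp* from 37.3 to 23.6 and from 18.1 to 11.7, and *Hk1* from 31.4 to 20.5 and from 19.7 to 13.0. Over the 30 comparisons of a gene relative to the fibre genes, none between Laminectomy and SHAM mice reached the smallest possible p. Without Laminectomy mouse 1, *Hk1*, *Pfkp*, *Pgam1* and *Eno1* were 2.42-fold, 3.18-fold, 3.37-fold and 3.07-fold lower in Laminectomy than in SHAM mice, each with p = 0.0571 in an exact permutation test, the smallest that 3 mice against 4 allow. Without SHAM mouse 1, *Hk1* was 1.04-fold, *Pgam1* 1.24-fold and *Eno1* 1.18-fold lower, and the log2 difference of *Pfkp* was -0.38.

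**Figure D4:**
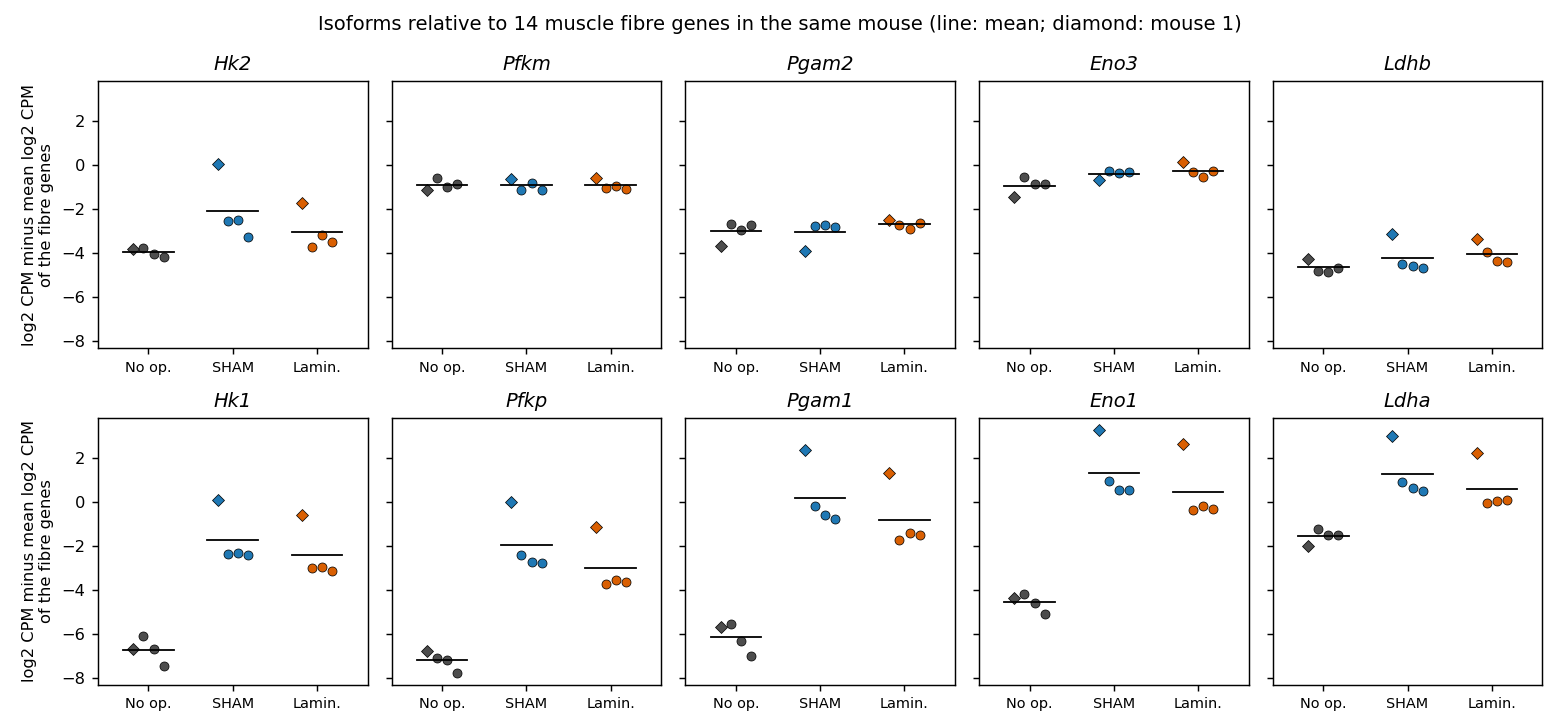
Log2 CPM of each isoform minus the mean log2 CPM of 14 muscle fibre genes in the same mouse, with a line at the group mean and a diamond for the mouse numbered 1. *Pfkm* and *Pgam2* overlap between all 3 groups, while *Hk1*, *Pfkp*, *Pgam1*, *Eno1* and *Ldha* are higher in every operated mouse.

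Laminectomy and SHAM mice were compared directly as well, which asks what lamina excision adds to the soft tissue wound. None of the 10 genes was called between these groups, as none of the 14765 genes tested was by edgeR (0% called, smallest adjusted p over all genes 0.0698). At an unadjusted p below 0.05, 1 of the 10 genes differed, against 16.0% of all genes. This was *Ldhb*, higher in Laminectomy mice by a log2 fold change of 0.89 (adjusted p = 0.177 by edgeR, standard error 0.289), with SHAM mice at 14.3 to 23.2 CPM and Laminectomy mice at 18.6 to 54.7 CPM. DESeq2 called 687 genes, none of them an isoform described here. The ranges of both surgical groups overlapped for all 10 genes, while they did not overlap for 10.1% of all genes tested.

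With all mice, the isoform ratios did not separate the surgical groups either. In exact permutation tests p was 0.257 for *Hk1*/*Hk2*, 0.257 for *Pfkp*/*Pfkm*, 0.371 for *Pgam1*/*Pgam2*, 0.371 for *Eno1*/*Eno3* and 0.114 for *Ldha*/*Ldhb*. The log2 differences, Laminectomy minus SHAM, were 0.30 (standard error 0.271), -1.04 (0.779), -1.41 (1.21), -1.03 (0.968) and -0.88 (0.419) in the same order. They leaned on the mice numbered 1: for *Pgam1*/*Pgam2* the difference was -0.40 without SHAM mouse 1 and -2.06 without Laminectomy mouse 1, and for *Eno1*/*Eno3* it was -0.29 and -1.64. Without Laminectomy mouse 1, p was 0.0571 for both, the smallest that 3 mice against 4 allow. Nor did the groups overlap without this mouse for *Pfkp*/*Pfkm* (0.152 to 0.168 in Laminectomy against 0.264 to 1.55 in SHAM mice). The same held for *Ldha*/*Ldhb* (14.6 to 22.7 against 35.5 to 69.3), and only *Hk1*/*Hk2* still overlapped.

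The rest of the pathway was described from lists of named genes. Of other glycolytic enzymes and their relatives by name, such as *Ldhd* and *Pgam5*, 21 had a row in the table and 16 were tested. Of these genes, 4 were called higher and 10 lower in SHAM mice and 3 higher and 10 lower in Laminectomy mice. Their median log2 fold changes were -1.06 and -0.93, against a median close to 0 over all genes. *Aldoa*, the aldolase of muscle, fell from a mean of 10217 CPM to 1247 in SHAM and 1417 in Laminectomy mice (log2 fold changes -3.03 and -2.85, standard errors 0.202 and 0.201). *Ldhd*, a D-lactate dehydrogenase, fell from 40.3 CPM to 3.74 and 5.17 (log2 fold changes -3.43 and -2.96, standard errors 0.324 and 0.316). In contrast, *Eno2*, the enolase of neurons, rose from 5.95 to 19.1 and 23.5 CPM (log2 fold changes 1.68 and 1.98, standard errors 0.405 and 0.407). *Aldoc*, the aldolase of brain, rose from 0.684 to 3.99 and 19.3 CPM (log2 fold changes 2.53 and 4.80, standard errors 0.812 and 0.843). The *Aldoc* values were 7.20, 48.1, 19.3 and 2.50 CPM in Laminectomy mice 1 to 4, and without mouse 2 the log2 fold change was 3.81 (standard error 0.651). The 5 neural markers summed to 40.1, 762, 208 and 30.5 CPM in the same mice, with *Snap25* at 0.0529, 63.1, 23.7 and 0 CPM, and to between 38.2 and 147 CPM over the other groups. *Eno2* was at 9.37, 43.2, 21.5 and 19.8 CPM in these mice. Within the Laminectomy group, *Aldoc* and *Eno2* were thus highest in the same 2 mice as the neural markers, whose part in their values was not tested. SHAM mouse 2 was at 29.6 CPM of *Eno2*, above Laminectomy mouse 3, with a neural sum of only 40.1 CPM. In SHAM mice, where none of the 3 neural markers tested was called, the call of *Aldoc* was lost without SHAM mouse 1 (log2 fold change 2.11, adjusted p = 0.0517 by edgeR) or No operation mouse 4 (2.36, adjusted p = 0.0511 by edgeR). Without SHAM mouse 1, 2 of the listed genes in place of 4 were called higher in SHAM mice.

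Among genes that set the pace of glycolysis, 12 were tested, with 1 called higher and 8 lower in SHAM mice and 1 higher and 10 lower in Laminectomy mice. *Fbp2*, the muscle fructose bisphosphatase, had log2 fold changes of -4.52 and -4.06 in SHAM and Laminectomy mice (standard errors 0.559 and 0.542). *Pfkfb1*, a kinase and phosphatase that makes and breaks the activator of phosphofructokinase, fell with log2 fold changes of -3.55 and -3.70 (standard errors 0.356 and 0.359), and its relative *Pfkfb2* with -0.60 and -0.59 (standard errors 0.0796 and 0.0796). The gene called higher was *Pdk3*, a kinase that shuts pyruvate dehydrogenase, with 1.71 and 1.83 (standard errors 0.229 and 0.230).

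Of 9 glucose and lactate carriers, 2 were called higher and 2 lower in SHAM mice and 2 higher and 4 lower in Laminectomy mice. *Slc2a4*, the insulin-responsive glucose carrier GLUT4 of muscle and fat, was at a mean of 587 CPM in No operation, 24.0 in SHAM and 26.4 in Laminectomy mice (log2 fold changes -4.61 and -4.47, standard errors 0.582 and 0.578). Fat cell markers fell too, 3 of 5 called lower in SHAM and 5 of 5 in Laminectomy mice, with sums of 1834 to 3149 CPM in No operation, 257 to 2098 in SHAM and 73.7 to 465 in Laminectomy mice, and their part in the *Slc2a4* values was not tested. Of these 5 markers, 1 was called lower in SHAM mice without SHAM mouse 1 or 4, and 5 without SHAM mouse 3. *Slc2a12* fell as well, with log2 fold changes of -2.88 and -2.38 (standard errors 0.295 and 0.287). *Slc2a1*, the GLUT1 carrier of most cells, was at 23.6, 117 and 51.5 CPM, with a called rise in SHAM mice (log2 fold change 2.31, adjusted p = 0.00139 by edgeR, standard error 0.475) and a value of 1.13 in Laminectomy mice that was not called (adjusted p = 0.0523 by edgeR, standard error 0.461). SHAM mouse 1 was at 250.4 CPM, above the 64.5 to 79.97 CPM of SHAM mice 2 to 4, and without it the log2 fold change in SHAM mice was 1.61 (standard error 0.314, called). The value in Laminectomy mice passed the threshold when any one of No operation mouse 1, SHAM mice 1 and 3 and Laminectomy mouse 3 was left out (adjusted p between 0.0069 and 0.0485 by edgeR). The monocarboxylate carrier *Slc16a7* was called in Laminectomy mice at 0.52 (adjusted p = 0.0310 by edgeR, standard error 0.187) and stood at 0.32 in SHAM mice (adjusted p = 0.153 by edgeR, standard error 0.187). The former call was lost without any one of No operation mice 1 and 4 and Laminectomy mice 1 and 3 (log2 fold changes 0.34 to 0.53).

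Glycogen, the glucose store of muscle, had 18 genes tested, 1 called higher and 12 lower in SHAM mice and 1 higher and 13 lower in Laminectomy mice, with medians of -2.37 and -2.50 on the log2 scale. *Phkg1*, the muscle catalytic subunit of phosphorylase kinase, fell with log2 fold changes of -5.20 and -4.37 (standard errors 0.648 and 0.621), and *Ppp1r3a*, a glycogen-targeting subunit of muscle protein phosphatase, with -4.71 and -3.94 (standard errors 0.519 and 0.499). *Phkg2*, the other catalytic subunit of phosphorylase kinase, had values of 0.38 and 0.27 that were not called (standard errors 0.180 and 0.180), though the former was 0.50 and just past the threshold without SHAM mouse 3. *Pgm1*, a phosphoglucomutase by the table's symbol, rose with log2 fold changes of 0.98 and 1.08 (standard errors 0.179 and 0.179).

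A list of 10 genes known to answer to low oxygen, a state in which many glycolytic genes are induced, was examined beside them. In SHAM mice 4 were called higher and 3 lower, and in Laminectomy mice none higher and 4 lower. *Vegfa* fell in both groups, with log2 fold changes of -1.27 (standard error 0.351) and -2.38 (standard error 0.364), and *Bnip3* with -1.15 (standard error 0.340) and -2.19 (standard error 0.350). *Ero1l* rose in SHAM mice by 1.87 (adjusted p = 0.0046 by edgeR, standard error 0.466), with 0.66 in Laminectomy mice that was not called (adjusted p = 0.231 by edgeR, standard error 0.455), and *Kdm3a* was at 0.61 (standard error 0.134, called) and 0.16 (standard error 0.134, not called). The 10 genes summed to 1533 CPM in SHAM mouse 1, 452 to 687 CPM in the other SHAM mice, 392 to 425 CPM in the Laminectomy group and 946 to 1251 CPM in the No operation group. *Ero1l* reached 318 CPM in SHAM mouse 1, against 71.3 to 81.3 CPM in SHAM mice 2 to 4. Without SHAM mouse 1 its log2 fold change in SHAM mice was 1.02 (standard error 0.215, called), its 0.66 in Laminectomy mice was called (adjusted p = 0.0152 by edgeR) and *Kdm3a* in SHAM mice was at 0.43, not called. Without this mouse 3 genes of the list were called higher and 3 lower in SHAM mice, and the part of this mouse in the *Pgam1*, *Eno1* and *Ldha* levels of its group was not tested beyond leaving it out.

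**Figure D5:**
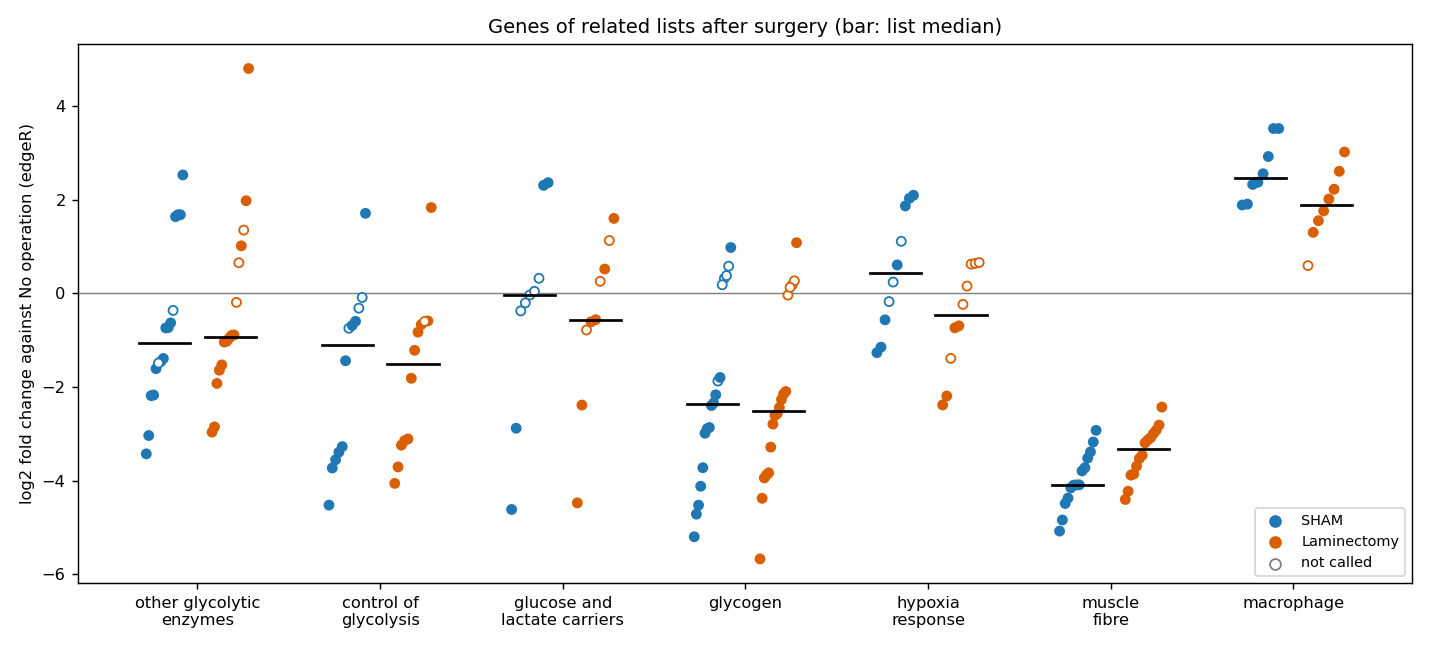
Log2 fold change against No operation mice for each tested gene of 7 lists, filled where called and open where not, with a bar at the list's median. The glycogen and muscle fibre medians lie below -2 in both surgical groups, and the macrophage medians lie at 2.46 in SHAM and 1.89 in Laminectomy mice.

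For each member, the genes with the most similar course were sought over the 12 mice, as the smallest root mean square difference of log2 CPM after subtracting the gene's own No operation mean. *Pgam2* was nearest to *Casq1* (0.206) and *Tnnc2* (0.210), the calsequestrin and troponin C of fast muscle, and *Pfkm* to *Asb2* (0.208) and *Actn3* (0.211). *Eno3* was nearest to *Hrc* (0.224), a calcium-binding protein of the sarcoplasmic reticulum, and *Fsd2* (0.232). *Hk2* was nearest to *Wfikkn2* (0.272) and *Gstk1* (0.307).

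Among the genes that rose, *Pgam1* was nearest to *Grn* (0.202), the progranulin gene, and *Tes* (0.211), *Eno1* to *Fkbp1b* (0.147) and *Clic1* (0.171), *Pfkp* to *Snx2* (0.124) and *Esd* (0.139), and *Hk1* to *Me2* (0.132) and *Ttc39b* (0.142). *Ldha* was nearest to another glycolytic enzyme, the triose phosphate isomerase gene *Tpi1* (0.100), with log2 fold changes of -1.45 in SHAM and -1.53 in Laminectomy mice, and then to *LOC115487203* (0.170). *Ldhb* was nearest to *Usp13* (0.283) and *Klhl34* (0.301). Within the set of 10, *Hk1* and *Pfkp* were each other's nearest member (0.269), as were *Pgam1* and *Eno1* (0.359), *Pgam2* and *Eno3* (0.463) and, at the widest distance, *Hk2* and *Ldha* (0.931). The paired isoforms of one reaction were never each other's nearest member. Except for *Ldha* and *Ldhb*, the partners changed in opposite directions, so for those pairs this outcome was largely set beforehand.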

How the data were processed

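RNA of 12 mice was measured with stranded mRNA libraries on an Illumina HiSeq instrument, and groups and mouse numbers were taken from the sample labels. Per the labels and the study's methods, the authors aligned the reads with STAR 2.6.1b to GRCm38 and counted them per gene with featureCounts 2.0.1 at default settings. The deposited table of 18996 genes holds estimated counts without normalization, since 10.22% of its values are not whole. The design had been written for whole counts, so values were rounded, which changed none by more than 0.5. The study's methods give 3 mice per group without naming them, so all 4 were used.

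Genes were filtered with filterByExpr, which left 14765, scaled by TMM (factors 0.849 to 1.134) and fitted over all mice in edgeR 4.0.16 (glmQLFit, glmQLFTest, R 4.3.3), with a biological coefficient of variation of 28.3%. A standard error is the absolute log2 fold change divided by the square root of F. CPM used TMM-scaled library sizes, and log2 CPM a prior count of 2. For ratios (15 comparisons) and values relative to fibre genes, exact permutation tests over mice were run, two-sided (scipy 1.17.1), and mice of a group are separate animals. Lengths and exon overlaps come from GENCODE M21, and promoters from RefSeq.

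The members and all lists were chosen with earlier results of these data known. Named beside the members were, in each pathway list, the 2 highest and 2 lowest log2 fold changes of Laminectomy against No operation with at least 10 CPM in the higher group, for each member the 2 nearest profiles, and marker genes where a result turned on them. *Tpi1* comes from the nearest profiles, and *Senp1*, *Pitrm1* and *Eno1b* are named for shared reads. Precision was limited by counting error and by the spread between 4 mice. DESeq2 1.42.0, other scalings, filters, thresholds and sets of mice were tried as alternatives.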

Additional observations from a re-analysis of the deposited data

Results flagged for a closer look

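In 45 groups of 4 values (10 genes and 5 ratios in 3 groups), the highest or lowest mouse was tested for standing apart by Dixon's criterion. The criterion was met by 6 groups, where chance alone meets it in about 1 independent group in 20. The 45 groups are not independent, since the ratios reuse the values of the genes, so the 6 cannot be set against that rate. The mouse concerned was numbered 1 each time. In SHAM mice, *Pgam2* was lowest in mouse 1 at a log2 CPM of 3.07 (8.37 CPM). The log2 ratio of *Pgam1* to *Pgam2* was highest in SHAM mouse 1 at 6.27, and that of *Eno1* to *Eno3* was highest in the same mouse at 3.94. In Laminectomy mice, *Pgam1* was highest in mouse 1 at a log2 CPM of 8.90 (478 CPM). The log2 ratio of *Pfkp* to *Pfkm* was highest in Laminectomy mouse 1 at -0.54, and that of *Eno1* to *Eno3* at 2.50. These 2 mice also had the lowest summed muscle fibre genes of their groups (2690 and 3846 CPM), whose part in the flags was not tested.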

How the results depend on the processing

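Over 22 alternatives of tool, scaling, filter, rounding, groups fitted, threshold and mice, 10 isoforms were called in SHAM mice, 9 or 10 in Laminectomy mice and 0 between both surgical groups, except that a minimum log2 fold change of 1 left 9 in SHAM and 8 in Laminectomy mice. Of 600 single-gene values, 3 lost their call, all for *Pfkp* in Laminectomy mice (log2 fold change 0.57, 0.55 and 0.45 with adjusted p = 0.0595, 0.0621 and 0.0796 by edgeR, without No operation mouse 2, No operation mouse 4 and Laminectomy mouse 1). All 165 alternative ratios and 264 values relative to fibre genes kept their direction or moved by less than the spread. With the mouse number as a replicate block, 10, 10 and 0 isoforms were called, and 7442, 7153 and 0 of all genes. Deviations of same-numbered mice correlated between -0.228 and 0.352, above 0.1 in 7 of 12 pairs, among them all pairs numbered 1 or 3, and below 0 in 4. Of 12 mice, 2 correlated best with their own number in both other groups. Since some pairs were not above 0.1, the numbers were not taken as a pairing. Leaving out the mouse numbered 1 of every group, and single mice for the genes of other lists and the values relative to fibre genes, was chosen after the values were seen. With 4 mice per group, exact tests allow no p below 0.0286.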
